A study of Mus musculus with 12 samples.

Results

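The 9 genes described here are drivers and tumour suppressors of prostate cancer: Akt1, Cdkn1b, Rb1, Trp53, Brca2, Chd1, Spop, Myc and Erg. They were chosen by name, all 9 of 9 were found among the 23284 genes of the deposited table, and all 9 passed the filter on low values that left 15096 genes for testing. RNA was sequenced after poly-A selection from prostate tissue of 4-month-old mice on a hybrid 129/SvImJ and C57Bl/6J background. The groups were 6 libraries from mice homozygous for a null allele of the gene under study, called null below, and 6 libraries from wild-type mice. The labels name no agent, transgene or Cre driver. They also leave unstated whether each library is a different animal, so p-values reflect library-to-library spread alone, part of which may be technical. Values are on a log2 scale and are not known to be scaled to transcript length, so levels are compared between libraries for 1 gene and not between genes.

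These genes act at a few points that recur in prostate tumours. Akt1 encodes a kinase that carries growth factor signals from phosphoinositide 3-kinase to mTOR and to the FOXO factors. Cdkn1b encodes p27, an inhibitor of cyclin-dependent kinases, and Rb1 encodes the retinoblastoma protein, which holds E2F factors in check until it is phosphorylated. Trp53 encodes p53, which induces cell cycle arrest and cell death genes after damage, and Brca2 encodes a protein that homologous recombination needs to repair broken DNA. Chd1 encodes a chromatin remodeller and Spop the substrate adaptor of a CUL3 ubiquitin ligase, and both are recurrently lost or mutated in human prostate tumours. Myc encodes a growth-promoting transcription factor that is gained in many of these tumours, and Erg an ETS factor that in humans is often fused to the androgen-driven TMPRSS2 gene.

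Promoter sequences of 4 of the 6 genes called as changed are given so that they can be read beside the values below. Windows of 300 bases, from 250 before to 50 after an annotated start, were found in RefSeq (GRCm38.p6) for 6 of the 9 genes, and those of Akt1 (2 starts), Cdkn1b, Trp53 and Spop are printed. The genes without a window there were Chd1, Rb1 and Myc. They lie at chr12:112674835-112675134 (Akt1, upstream start, minus strand), chr12:112674227-112674526 (Akt1, downstream start, minus strand), chr6:134920151-134920450 (Cdkn1b, plus strand), chr11:69580109-69580408 (Trp53, plus strand) and chr11:95413833-95414132 (Spop, plus strand). Capitals mark matches on either strand to the E-box CACGTG, an E2F motif TTTNNCGC, the GC box GGGCGG, an ETS motif CCGGAAG, a FOXO motif TGTTTAC and the CCAAT box CCAAT, and neighbouring or overlapping matches run together.
Akt1 upstream start: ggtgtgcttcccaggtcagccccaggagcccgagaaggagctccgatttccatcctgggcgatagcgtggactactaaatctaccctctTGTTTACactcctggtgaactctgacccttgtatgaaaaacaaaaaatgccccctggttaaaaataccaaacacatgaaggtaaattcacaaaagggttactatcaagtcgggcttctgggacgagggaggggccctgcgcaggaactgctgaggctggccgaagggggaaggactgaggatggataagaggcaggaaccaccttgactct
Akt1 downstream start: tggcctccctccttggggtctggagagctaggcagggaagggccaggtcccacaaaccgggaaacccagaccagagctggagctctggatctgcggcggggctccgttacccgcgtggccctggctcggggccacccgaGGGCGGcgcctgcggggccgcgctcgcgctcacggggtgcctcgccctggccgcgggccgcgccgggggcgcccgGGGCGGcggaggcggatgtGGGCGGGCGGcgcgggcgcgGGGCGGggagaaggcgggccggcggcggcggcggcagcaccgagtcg
Cdkn1b: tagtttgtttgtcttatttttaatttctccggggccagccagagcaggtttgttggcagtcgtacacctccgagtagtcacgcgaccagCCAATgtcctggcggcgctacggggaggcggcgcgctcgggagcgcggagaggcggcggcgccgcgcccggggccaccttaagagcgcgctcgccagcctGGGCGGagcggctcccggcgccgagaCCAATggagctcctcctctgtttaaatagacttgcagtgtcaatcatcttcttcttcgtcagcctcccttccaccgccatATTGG
Trp53: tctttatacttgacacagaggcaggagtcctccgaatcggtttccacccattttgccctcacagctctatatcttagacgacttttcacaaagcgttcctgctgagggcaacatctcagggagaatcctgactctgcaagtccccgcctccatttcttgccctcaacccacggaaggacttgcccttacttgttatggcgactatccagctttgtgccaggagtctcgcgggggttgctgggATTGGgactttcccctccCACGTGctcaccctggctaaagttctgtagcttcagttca
Spop: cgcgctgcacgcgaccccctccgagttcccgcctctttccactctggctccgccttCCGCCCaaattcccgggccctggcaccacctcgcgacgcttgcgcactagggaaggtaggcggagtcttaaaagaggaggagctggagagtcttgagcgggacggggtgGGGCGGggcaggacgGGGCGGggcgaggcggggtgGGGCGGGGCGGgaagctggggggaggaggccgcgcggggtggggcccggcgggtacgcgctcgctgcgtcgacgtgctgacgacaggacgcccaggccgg

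The windows differed in which motifs they held. The upstream Akt1 window held 1 FOXO match, a motif present in 3.65% of all 32851 promoter windows, and the downstream one held 5 GC boxes, present in 35.7%. Cdkn1b held 3 CCAAT boxes, present in 37.4% of windows, and 1 GC box. Trp53 held 1 E-box, present in 7.15%, and 1 CCAAT box, while Spop held 5 GC boxes. Of the printed windows none held the E2F motif (5.17% of all windows) or the ETS motif (8.86%), which says only that these letters were not found there. Brca2, whose window is not printed, held 1 match to the E2F motif.

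The tissue carried the transcripts of prostate epithelium in both genotypes, though with a changed balance. All 11 luminal and prostate markers were called, 3 higher and 8 lower in null prostate, and their summed level was 16.7 to 17.0 (log2) in null and 19.7 to 19.9 in wild-type libraries. Among those that fell were the secretory genes Sbp, Msmb and Pbsn. Of 14 immune cell markers 13 fell, with sums of 10.8 to 11.2 in null and 11.5 to 12.4 in wild-type libraries. Of 10 basal epithelial markers 7 rose and 1 fell, and over set means 4 rose and 0 fell. Their sums overlapped, at 12.85 to 13.21 in null and 12.76 to 12.93 in wild-type libraries. All 8 tested seminal vesicle secretory genes rose, with sums of 16.8 to 20.3 in null and 8.02 to 11.7 in wild-type libraries. Of the 9 listed, 5 averaged at the level of undetected genes in wild-type libraries. Those of them that were tested passed the filter on low values mainly through null libraries, so the filter largely fixed their direction. Of 8 adipocyte markers 5 rose and 0 fell, with a median difference of 1.26, and 3 rose over set means. Their sums were 7.82 to 11.4 in null and 8.02 to 9.36 in wild-type libraries. The number of adipocyte markers called was unstable. It ranged from 0 to 7 over the 25 alternatives given below, and from 1 to 7 with each library left out. The part of these differences in cell makeup in the results below was not tested, except where a value is given. The libraries of each genotype also formed 2 sets of 3, null libraries 1, 2 and 5 and null libraries 3, 4 and 6, and wild-type libraries 1 to 3 and 4 to 6. Tests were therefore run on the 12 libraries and again on the means of the 4 sets. Libraries of a set are alike and the fit over 12 libraries takes them as independent, so its adjusted p-values are too small. In simulated data given this spread between sets, that fit called too many unchanged genes. The fit on set means called almost none of them but missed many changed ones. That spread was built in, and the sets had been chosen for the smallest spread within them, which makes the spread between them largest. Far fewer genes were also changed than were called here, so these rates do not carry over to these data.

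Of the 9 genes, 6 were called over 12 libraries at an adjusted p under 0.05 (limma, Benjamini-Hochberg over all tested genes), 4 higher and 2 lower in null prostate. Over all tested genes 53.1% were called, 28.0% higher and 25.1% lower, so the 66.7% of these genes called is to be read against that share. Chd1, Cdkn1b, Rb1 and Trp53 rose, Akt1 and Spop fell, and Erg, Brca2 and Myc did not pass. None of the 9 genes was 2-fold apart or more, beside 1058 called genes of the 15096 tested that were. The genotypes did not overlap for 3 of 9 genes, Akt1, Chd1 and Rb1, beside 32.6% of all tested genes. Over set means 1 of the 9 genes was called, Chd1, which was higher, and 3 of the 9 had an unadjusted p under 0.05. Of all tested genes 14.5% were called over set means, 7.58% higher and 6.96% lower. Upper quartile scaling moved the split of all called genes to 3367 higher and 4869 lower, beside 4224 and 3789 as deposited. By size, the difference of Chd1 exceeded that of 80.3% of all tested genes, that of Akt1 69.0% and that of Myc 6.67%.

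**Figure D1:**
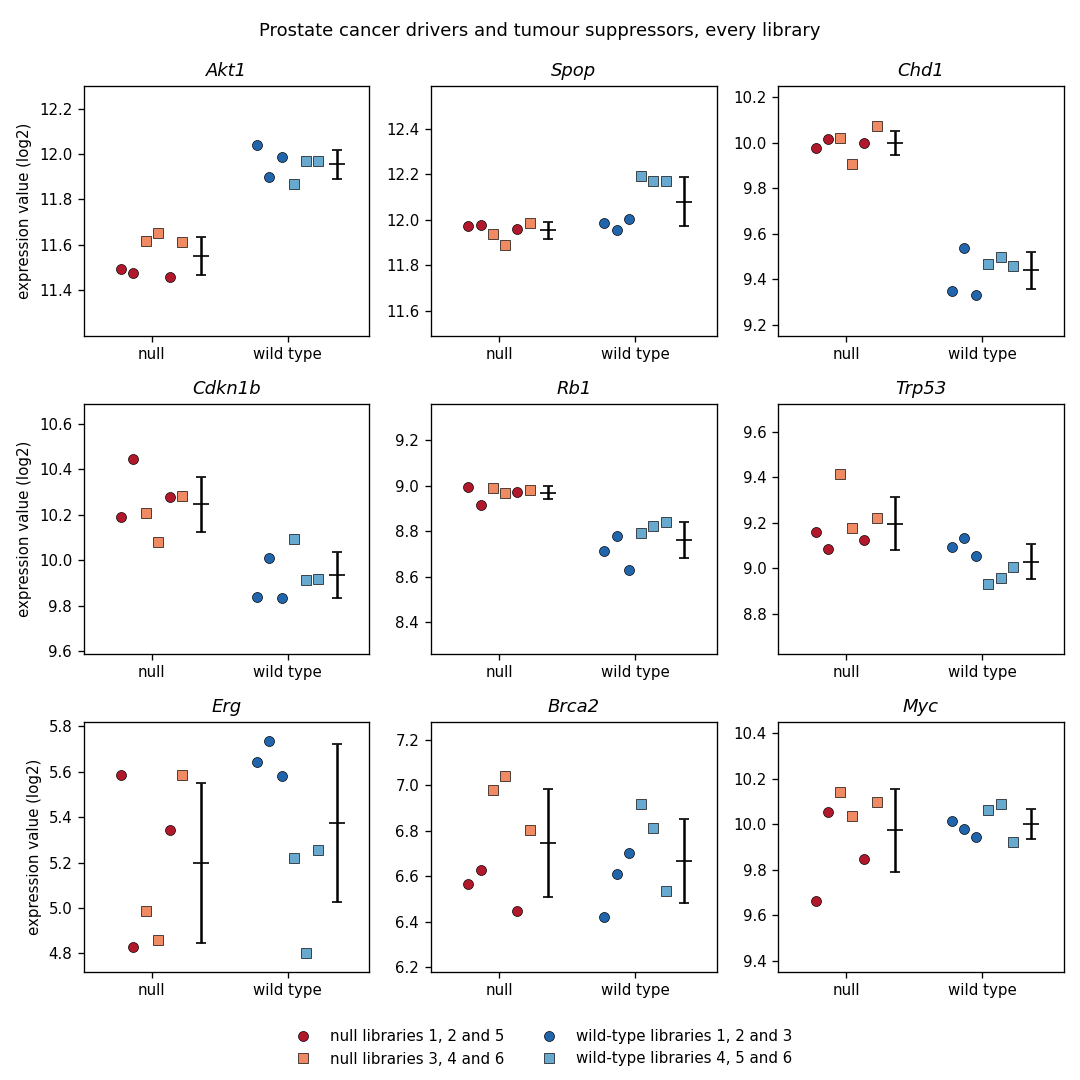
Expression value (log2) of each of the 9 genes in every null (left) and wild-type (right) library, with colour and shape for the sets of libraries; the bar beside each group is the mean ± SD (n = 6), and each panel spans the same log2 height. Akt1, Chd1 and Rb1 show no overlap between genotypes, and the wild-type sets of Spop and Erg stand apart from each other.

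Akt1 transcripts were lower in every null library. Its values were 11.46, 11.55 and 11.65 (lowest, median and highest) in null libraries and 11.87, 11.97 and 12.04 in wild-type libraries. Null libraries 1, 2 and 5 were the lowest, at 11.46 to 11.49, and null libraries 3, 4 and 6 followed at 11.62 to 11.65. Akt1 fell by 0.40 on the log2 scale (SE 0.0477, 0.757-fold, limma adjusted p = 6.88e-06). Over set means the adjusted p was 0.0579, with each null set below each wild-type set by between 0.31 and 0.50. That p depended on the scaling, at 0.0180 over set means after quantile normalization and 0.0249 after upper quartile scaling. In bulk tissue fewer cells of a type and less RNA per cell cannot be told apart.

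Akt2, a close relative of Akt1, did not pass. It averaged 9.89 ± 0.0856 in null and 9.89 ± 0.0369 in wild-type libraries (SD, n = 6 each), a difference of 0.00 (95% interval -0.09 to 0.10), and -0.07 after quantile normalization. The log2 ratio of Akt1 to Akt2 averaged 1.66 ± 0.0771 in null and 2.07 ± 0.0496 in wild-type libraries (SD, n = 6 each), a change of -0.41 (exact 2-sided permutation p = 0.00216, adjusted p = 0.00495 over 16 such ratios). Of these 16 ratios 14 are reported. They were chosen with the values of these data known, 0.00216 is the smallest p that 924 arrangements of 12 libraries allow, and the libraries of a set count as independent in it.

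Of 25 tested genes of the PI3K-AKT-mTOR pathway 14 rose and 4 fell, Akt1 among them, or 72.0% called beside 53.1% of all tested genes, with a median difference of 0.20 beside 0.01 over all tested genes. Over set means 4 rose and 0 fell. Pik3r1, the regulatory subunit that stabilises phosphoinositide 3-kinase, rose by 0.86 (adjusted p = 2.86e-06) to 12.02 ± 0.244 in null libraries, against 11.16 ± 0.0623 in wild-type libraries (SD, n = 6 each). Rictor, a scaffold of the mTOR complex that phosphorylates AKT, rose by 0.51 (adjusted p = 8.11e-06). Tsc1, which restrains mTOR, rose by 0.39 (adjusted p = 5.53e-06).

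**Figure D2:**
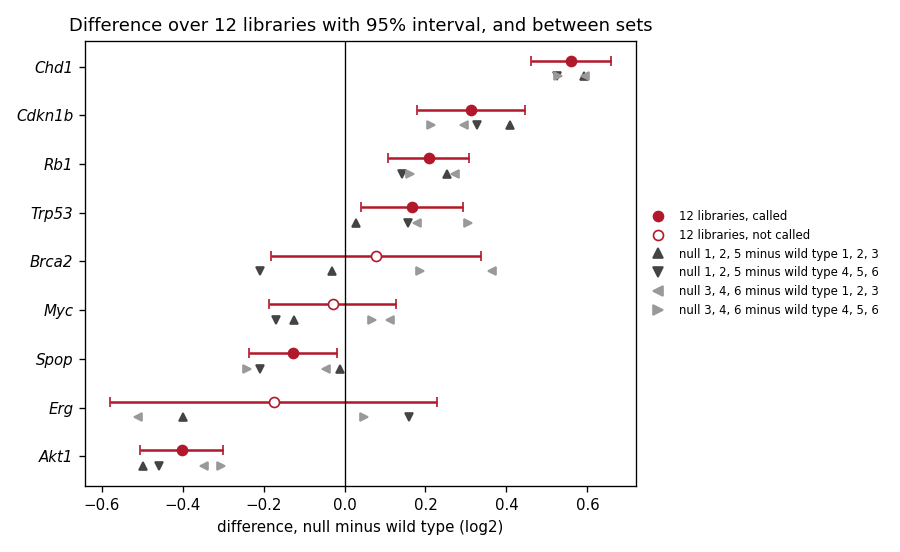
Difference of each gene, null minus wild type (log2): circles with bars give the fit over 12 libraries with its 95% interval (filled where called), and small triangles give each null set mean minus each wild-type set mean. Chd1 lies at 0.56 with all 4 set differences between 0.52 and 0.59, while the set differences of Erg, Brca2 and Myc fall on both sides of 0.

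Cdkn1b rose, by the fit over 12 libraries. It had values of 10.08, 10.24 and 10.44 (lowest, median and highest) in null libraries and 9.83, 9.92 and 10.09 in wild-type libraries. The groups met only at null library 4 and wild-type library 4, and the other null libraries lay above all wild-type libraries. Cdkn1b rose by 0.31 (SE 0.0619, 1.24-fold, limma adjusted p = 0.000681), with an adjusted p of 0.0804 over set means. Each null set lay above each wild-type set, by 0.21 to 0.41.

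Among inhibitors of cyclin-dependent kinases and factors that set p27 levels, Cdkn1b included, 6 of 15 tested genes rose and 0 fell. The share called was 40.0%, beside 53.1% of all tested genes, the median difference was 0.09, and 2 genes passed over set means. Foxo4 rose by 1.02 (adjusted p = 8.16e-08) and Foxo3 by 0.75 (adjusted p = 1.45e-05). They encode FOXO factors, which AKT phosphorylates and which can induce Cdkn1b. Skp1a, a core subunit of the SCF ubiquitin ligases that include the p27 ligase, rose by 0.33 (adjusted p = 4.57e-05). Skp2, on the same list, rose by 0.41 (adjusted p = 0.0111), with an adjusted p of 0.172 over set means. Cdkn1a, which encodes p21, differed by 0.09 (95% interval -0.14 to 0.31) and Cdkn1c, which encodes p57, by -0.20 (-0.50 to 0.11). The ratio of Cdkn1b to Cdkn1c rose by 0.51 (exact permutation p = 0.00433, adjusted p = 0.00866 over the 16 ratios), but its adjusted p was 0.114 without null libraries 3, 4 and 6 and 0.148 without wild-type libraries 1 to 3. The ratio to Cdkn1a, at 0.23, did not pass (exact permutation p = 0.0519, adjusted p = 0.0924). That of Cdkn1b to Skp2, at -0.09, did not pass either (exact permutation p = 0.444, adjusted p = 0.546).

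Rb1 was almost constant among null libraries. Its values were 8.92, 8.98 and 8.99 (lowest, median and highest) in null libraries and 8.63, 8.79 and 8.84 in wild-type libraries. All 6 null libraries lay above the highest wild-type library. Rb1 rose by 0.21 (SE 0.0465, 1.15-fold, limma adjusted p = 0.00171), with an adjusted p of 0.204 over set means. Wild-type libraries 4 to 6, at 8.79 to 8.84, stood closer to the null level than libraries 1 to 3, at 8.63 to 8.78.

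The other pocket proteins did not pass. Rbl1 differed by 0.06 (95% interval -0.11 to 0.24) and Rbl2 by 0.11 (-0.07 to 0.29). The ratios of Rb1 to Rbl1 and to Rbl2 did not pass (exact permutation p = 0.0606 and p = 0.292, adjusted p = 0.0970 and 0.390). The ratio to Rbl2 was -0.10 without null libraries 1, 2 and 5, and was called at 0.29 without null libraries 3, 4 and 6 (exact permutation, adjusted p = 0.0238). Rbl2 itself rose by 0.32 without null libraries 1, 2 and 5 (adjusted p = 2.2e-05). Of 21 tested genes of the RB family, the E2F factors and the G1 cyclins and their kinases, 10 rose and 3 fell. The median was 0.25, and 61.9% were called, beside 53.1% of all tested genes. Over set means 2 rose and 1 fell. E2f5, a partner of the pocket proteins, rose by 0.71 (adjusted p = 2.09e-07), and E2f6, a repressive E2F that lacks the pocket-binding region, rose by 0.40 (adjusted p = 8.53e-05). The E2F dimer partners moved apart, with Tfdp1 higher by 0.55 (adjusted p = 8.24e-07) and Tfdp2 lower, at a difference of -0.43 (adjusted p = 7.05e-06).

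Trp53 rose slightly. Its values were 9.09, 9.17 and 9.42 (lowest, median and highest) in null libraries and 8.93, 9.03 and 9.13 in wild-type libraries. Null library 3 was the highest, and 4 of 6 null libraries lay above all wild-type libraries. The difference was 0.17 (SE 0.0592, 1.12-fold, limma adjusted p = 0.0274). Without null library 3 it was 0.12 with adjusted p = 0.0576, after upper quartile scaling it was 0.10 with adjusted p = 0.192, and over set means the adjusted p was 0.327. Without wild-type library 4 the adjusted p was 0.0608 and without wild-type library 5 it was 0.0589. Null libraries 1, 2 and 5 lay 0.03 above wild-type libraries 1 to 3, and null libraries 3, 4 and 6 lay 0.30 above wild-type libraries 4 to 6.

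Of 19 tested genes that p53 is known to induce, 10 rose and 2 fell, and the median difference was 0.20. The share called was 63.2%, beside 53.1% of all tested genes. Over set means 6 rose and 0 fell. Plk2, a polo-like kinase, rose by 1.10 (adjusted p = 8.46e-08) to 9.08 ± 0.175 in null libraries, against 7.97 ± 0.129 in wild-type libraries (SD, n = 6 each). Trp53inp1, a stress-induced cofactor of p53, rose by 0.97 (adjusted p = 3.40e-07), Zmat3 by 0.55 (adjusted p = 1.27e-06) and the death effector Bax by 0.46 (adjusted p = 3.76e-07). Cdkn1a and Mdm2, both long-known p53 targets, did not pass, and Mdm2 differed by 0.04 (95% interval -0.04 to 0.12). These 2 genes were singled out after their values were seen.

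Of 8 tested regulators and relatives of p53, 6 rose and 0 fell, or 75.0% called beside 53.1% of all tested genes, with a median of 0.53, and 3 rose over set means. Mdm4, which binds and inhibits p53, rose by 0.80 (adjusted p = 5.53e-08) and the acetyltransferase gene Ep300 by 0.66 (adjusted p = 1.35e-07). Usp7, a deubiquitinase that acts on MDM2 and p53, rose by 0.35 (adjusted p = 4.10e-06). Trp63, the p53 relative that marks basal cells, rose by 1.16 (adjusted p = 1.00e-07). It is on the list of 10 basal markers, of which 7 rose and 1 fell. The ratio of Trp53 to Mdm4 changed by -0.64 (exact permutation p = 0.00216, adjusted p = 0.00495). That of Trp53 to Mdm2, at 0.13, did not pass (exact permutation p = 0.0866, adjusted p = 0.126).

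Brca2 did not pass, and its null sets stood apart. Its values were 6.45, 6.72 and 7.04 (lowest, median and highest) in null libraries and 6.42, 6.66 and 6.92 in wild-type libraries. Null libraries 3 and 4 lay above the highest wild-type library, and the others overlapped. The difference was 0.08 (95% interval -0.18 to 0.34, limma adjusted p = 0.613). Null libraries 1, 2 and 5 stood at 6.45 to 6.63 and null libraries 3, 4 and 6 at 6.80 to 7.04. Proliferation genes followed the same sets. Their summed level was 11.7 to 11.8 in null libraries 1, 2 and 5 and 12.2 in null libraries 3, 4 and 6, beside 11.7 to 11.8 in wild-type libraries. The part of proliferation in the level of Brca2 was not tested. Of 24 proliferation genes 10 rose and 0 fell over 12 libraries, or 41.7% called beside 53.1% of all tested genes. Among them Mcm4 rose by 0.33 (adjusted p = 0.00244), Mki67 by 0.63 (adjusted p = 0.00334), Kif11 by 0.56 (adjusted p = 0.00594) and Cdk1 by 0.45 (adjusted p = 0.00697). Without null libraries 3, 4 and 6 the count was 0 higher and 3 lower, and over set means 0 were called.

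The list of homologous recombination and checkpoint genes, which holds Brca2, gave 8 genes higher and 2 lower of 25, or 40.0% called beside 53.1% of all tested genes. They had a median difference of 0.17, and over set means 2 rose. Fanca, a core protein of the Fanconi anaemia pathway of crosslink repair, rose by 2.79 (6.89-fold, adjusted p = 6.68e-10) to 9.65 ± 0.260 in null libraries, against 6.87 ± 0.242 in wild-type libraries (SD, n = 6 each). The checkpoint kinase gene Chek1 rose by 0.77 (adjusted p = 2.27e-06), Chek2 by 0.47 (adjusted p = 0.000223) and Cdk12, a kinase that supports transcription of long repair genes, by 0.35 (adjusted p = 1.57e-05).

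Chd1 had the largest difference of the 9 genes and was called in every fit run. Its values were 9.91, 10.01 and 10.07 (lowest, median and highest) in null libraries and 9.33, 9.46 and 9.54 in wild-type libraries. All 6 null libraries lay above the highest wild-type library. Chd1 rose by 0.56 (SE 0.0462, 1.47-fold, limma adjusted p = 1.89e-07), and the set means gave 0.0150 as adjusted p. The 2 null sets differed by -0.003 and the 2 wild-type sets by -0.07, less than any difference between a null and a wild-type set.

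Several relatives of Chd1 rose with it. Their list holds Chd1 to Chd9, Chd1l and Map3k7, the gene often lost together with CHD1 in human tumours. Of its 11 tested genes 7 rose and 0 fell over 12 libraries, with a median of 0.20. The share called was 63.6%, beside 53.1% of all tested genes. Chd9 rose by 0.62 (adjusted p = 4.57e-08), Chd3 by 0.45 (adjusted p = 8.68e-05) and Chd8 by 0.20 (adjusted p = 0.00103), and Chd1 and Chd9 passed over set means. Chd2, the closest relative of Chd1, stood at 10.62 ± 0.119 in null and 10.63 ± 0.171 in wild-type libraries (SD, n = 6 each). The ratio of Chd1 to Chd2 rose by 0.56 (exact permutation p = 0.00216, adjusted p = 0.00495).

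**Figure D3:**
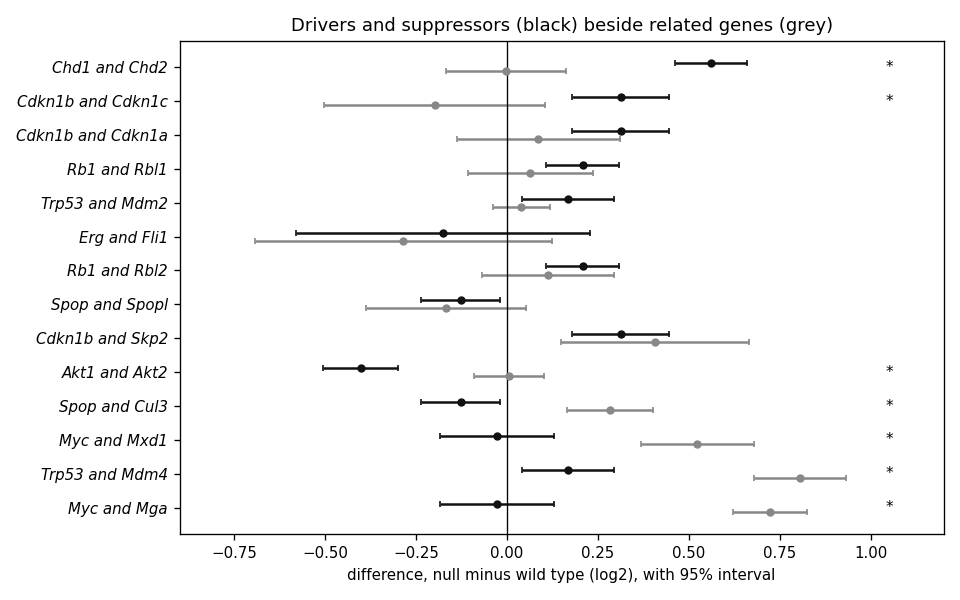
Differences, null minus wild type (log2), of a driver or suppressor (black) and a related gene (grey) with 95% intervals; an asterisk marks pairs whose log2 ratio changed at an adjusted p under 0.05 by an exact permutation test adjusted over 16 pairs, of which 14 are drawn. Chd1 at 0.56 and Chd2 near 0 are at the top, and Myc at -0.03 beside Mga at 0.72 at the bottom.

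In the values as deposited, the call of Spop rested on 1 set of wild-type libraries. Its values were 11.89, 11.97 and 11.99 (lowest, median and highest) in null libraries and 11.96, 12.09 and 12.19 in wild-type libraries. Wild-type libraries 4 to 6 stood at 12.17 to 12.19, above all others, while wild-type libraries 1 to 3, at 11.96 to 12.01, overlapped the null libraries. Spop fell by 0.13 (SE 0.0506, 0.916-fold, limma adjusted p = 0.0473), with an adjusted p of 0.485 over set means. Without wild-type libraries 4 to 6 the difference was -0.03 with adjusted p = 0.633. Leaving out any single null library, or wild-type library 4, 5 or 6, also ended the call, with adjusted p up to 0.105. Other scalings gave larger differences over 12 libraries. They were -0.23 after quantile normalization (limma adjusted p = 0.000964) and -0.20 after upper quartile scaling (limma adjusted p = 0.00233). Over set means neither passed (adjusted p = 0.160 and 0.220).

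Cul3, the scaffold that SPOP binds, rose by 0.28 to 11.22 ± 0.0550 in null libraries, against 10.94 ± 0.123 in wild-type libraries (SD, n = 6 each, adjusted p = 0.000605), a call that the set means did not give (adjusted p = 0.123). The ratio of Spop to Cul3 changed by -0.41 (exact permutation p = 0.00216, adjusted p = 0.00495). Spopl, a relative of Spop, differed by -0.17 (95% interval -0.39 to 0.05), and its ratio to Spop did not pass (exact permutation p = 0.619, adjusted p = 0.630). Of 14 tested genes of the ligase and of proteins reported as its substrates in human cells, 7 rose and 1, Spop, fell. The median was 0.21, and 57.1% were called, beside 53.1% of all tested genes. Dek, a chromatin protein, rose by 0.61 (adjusted p = 1.89e-05) and also passed over set means (adjusted p = 0.0323). The bromodomain gene Brd3 rose by 0.29 (adjusted p = 2.99e-05), and the steroid receptor coactivator gene Ncoa3 by 0.31 (adjusted p = 4.18e-05). These are transcript levels, and SPOP acts on proteins, which were not measured.

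Myc did not pass. Its values were 9.66, 10.05 and 10.14 (lowest, median and highest) in null libraries and 9.92, 9.997 and 10.09 in wild-type libraries. Null libraries 1 and 5, at 9.66 and 9.85, lay below every wild-type library, while null libraries 2, 3, 4 and 6 lay within or above the wild-type range. The difference was -0.03 (95% interval -0.19 to 0.13, limma adjusted p = 0.766). Without null library 1 it was 0.03 (adjusted p = 0.639).

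The MYC network list holds Myc, its partner Max, the factors that compete for Max and a few other regulators. Of its 12 tested genes 4 rose and 2 fell, where 53.1% of all tested genes were called, with a median of 0.04. Mga, a Max partner that represses MYC target genes, rose by 0.72 (adjusted p = 2.03e-08) and Mxd1, another such partner, by 0.52 (adjusted p = 3.01e-05), and both passed over set means. Max rose by 0.23 (adjusted p = 0.00412), and Fbxw7, a ubiquitin ligase subunit that marks MYC for degradation, fell by 0.22 (adjusted p = 0.00125), but over set means neither passed (adjusted p = 0.147 and 0.177). The ratio of Myc to Mga changed by -0.75 and that of Myc to Mxd1 by -0.55 (each exact permutation p = 0.00216, adjusted p = 0.00495). The ratio to Mxd1 had adjusted p = 0.0544 without wild-type libraries 1 to 3.

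Ribosome biogenesis and metabolic genes that MYC is known to induce moved both ways. Of 14 tested genes 3 rose and 6 fell, or 64.3% called beside 53.1% of all tested genes. Their median was -0.07, and over set means 0 rose and 2 fell. Cad, the enzyme that starts pyrimidine synthesis, fell by 0.94 (adjusted p = 1.79e-06) to 10.05 ± 0.163 in null libraries, against 10.98 ± 0.205 in wild-type libraries (SD, n = 6 each). Odc1, ornithine decarboxylase, fell by 0.88 (adjusted p = 4.16e-07). Ldha, lactate dehydrogenase A, fell by 0.32 (adjusted p = 0.000239), as did Cdk4, a G1 cyclin-dependent kinase, by 0.32 (adjusted p = 0.000867).

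Erg did not pass. Its values were 4.83, 5.16 and 5.59 (lowest, median and highest) in null libraries and 4.80, 5.42 and 5.74 in wild-type libraries, above the 3.51 that marks the 95th percentile of 1123 olfactory receptor genes. Wild-type libraries 1 to 3 stood at 5.58 to 5.74 and libraries 4 to 6 at 4.80 to 5.26, and null libraries fell in or between these ranges. The difference was -0.18 (95% interval -0.58 to 0.23, limma adjusted p = 0.458), and it was 0.10 without wild-type libraries 1 to 3 (adjusted p = 0.719). In normal tissue Erg is mainly an endothelial gene. Of 15 endothelial markers 1 rose and 1 fell, Flt1 by 0.62 (adjusted p = 0.000559) and Emcn by a difference of -2.07 (adjusted p = 3.20e-09), and their summed level was 11.5 to 11.9 in null and 11.4 to 11.9 in wild-type libraries. That sum was 11.6 to 11.9 in null libraries 1, 2 and 5 and 11.5 in null libraries 3, 4 and 6. It was 11.8 to 11.9 in wild-type libraries 1 to 3, where Erg was high, and 11.4 to 11.5 in wild-type libraries 4 to 6, where Erg was low, and its part in the level of Erg was not tested.

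Other ETS factors moved both ways. Of 23 tested genes 7 rose and 4 fell, or 47.8% called beside 53.1% of all tested genes. Their median was 0.09, and 1 passed over set means. That gene was Spdef, an ETS factor of secretory epithelium, which fell by 0.50 (adjusted p = 1.64e-07). Elk4 rose by 0.74 (adjusted p = 0.000188). Sfpi1, which encodes the macrophage and B cell factor PU.1, fell by 1.06 (adjusted p = 0.000197) and Spib, its relative, by 1.55 (adjusted p = 0.000298). Of 14 immune cell markers 13 fell over 12 libraries and 3 over set means. Fli1, the closest relative of Erg, differed by -0.28 (95% interval -0.69 to 0.12), but by -0.70 without wild-type libraries 4 to 6 (adjusted p = 0.00149). The ratio of Erg to Fli1 did not pass (exact permutation p = 0.552, adjusted p = 0.630).

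Genes that supply the 5′ part of ERG fusions in human tumours were lower or not called. Of 5 such genes 0 rose and 3 fell over 12 libraries, or 60.0% called beside 53.1% of all tested genes. Over set means 2 fell. Tmprss2, a membrane-anchored serine protease of luminal cells, fell by 1.25 (adjusted p = 1.41e-05) to 12.19 ± 0.372 in null libraries, against 13.45 ± 0.179 in wild-type libraries (SD, n = 6 each). Fkbp5, an androgen-induced chaperone, fell by 0.73 (adjusted p = 4.08e-06). Slc45a3, a prostate transporter, fell by 0.35 (adjusted p = 0.00319).

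**Figure D4:**
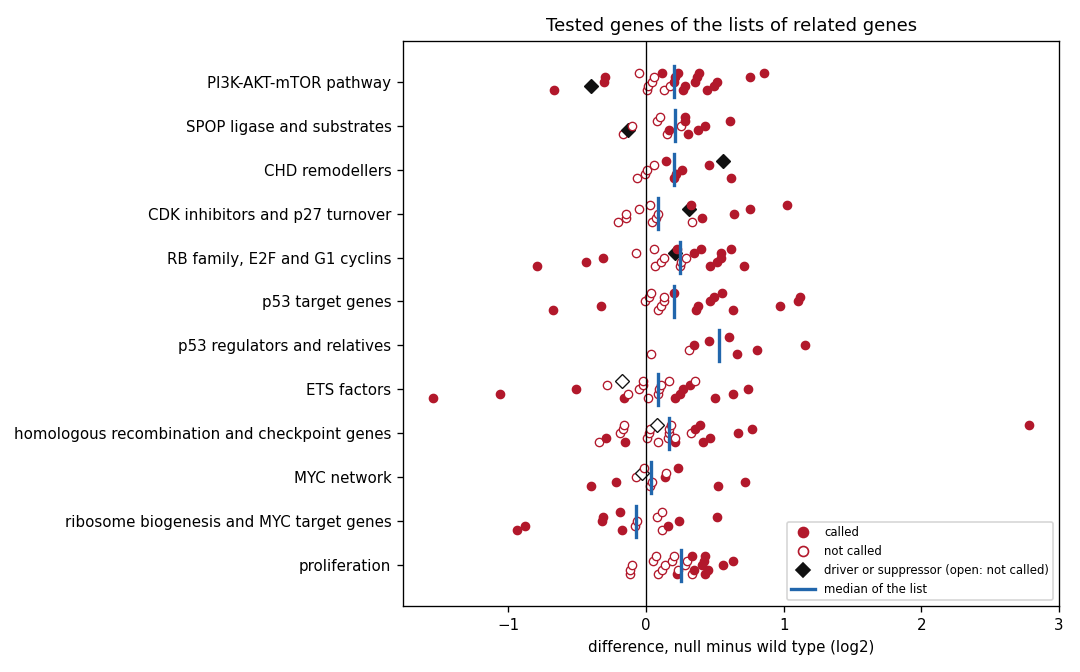
Differences, null minus wild type (log2), of the tested genes on each list of related genes. Filled points passed at an adjusted p under 0.05, and blue bars are list medians. Black diamonds are those of the 9 genes of this account that are on a list. Trp53 is on none of these lists and is not drawn. Akt1 at -0.40 and Spop at -0.13 lie below the medians of 0.20 and 0.21 of their lists, and Fanca stands alone at 2.79.

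The genes whose pattern was most like that of each of the 9 were found by the smallest mean absolute difference over 12 libraries, each gene centred on its own mean, among 15095 others. For Akt1 these were Rab1b (0.0302 on the log2 scale) and Gnb2 (0.0305), for Chd1 Adrbk2 (0.0435) and Agpat6 (0.0436), and for Cdkn1b Tial1 (0.0425) and Zfp207 (0.0448). For Rb1 they were Eif5 (0.0323) and Rhot1 (0.0327), for Trp53 Ccni (0.0354) and Utp18 (0.0406), and for Spop Rnf115 (0.0356) and D19Bwg1357e (0.0374). For the genes that were not called they were Hes1 (0.0361) and Rnf113a1 (0.0420) for Myc, Bbs4 (0.0740) and Btd (0.0807) for Brca2, and Itga9 (0.120) and Msn (0.126) for Erg. The libraries share sets and genotype, so likeness over them is a description.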

How the data were processed

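Poly-A enriched RNA of prostate tissue was made into TruSeq libraries and sequenced, per the labels' protocols. Build mm9 and the tools CASAVA 1.8.2, TopHat2 2.0.4, Cufflinks 2.0.2 and DESeq appear in the submitters' processing notes without roles. The authors deposited log2 values, from 1.07 to 21.6, of a form like variance-stabilised expression. No source used here states the transformation, the counting, or how reads were divided between paralogs and strands. The table gives no depths, so depth is unknown and no count test was used.

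The log2 values were tested unchanged. limma 3.58.1 (R 4.3.3; trend, robust moderation, Benjamini-Hochberg adjustment, threshold 0.05) had genotype as its single term and kept genes at 4 or more in at least 6 libraries. Each set of 3 libraries came from the split with the smallest spread within triplets, over 3633 genes averaging 10 or more, and a second fit used the 4 set means. Ratios were tested by exact permutation. The fits were also run on simulated data given the spread between sets seen here, with far fewer changed genes than were called here. There the fit over 12 libraries was too liberal, which that spread implies, and the fit on set means missed many changed genes. The 9 genes, the lists and the form of the fits were chosen with earlier results of these data known. Of each list up to 4 called genes with the smallest adjusted p are named (with under 2 called, the 2 of highest mean), and others were chosen after their values were seen. The level of the targeted gene, some genes the rule would name and 2 of the 16 ratios are not reported here.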

Additional observations from a re-analysis of the deposited data

Results flagged for a closer look

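A library far from the other 5 of its genotype was looked for in 83 genes and both genotypes. By Dixon's criterion 11 of 166 groups had one, where chance gives about 1 in 20. Among the 9 drivers and suppressors this was Rb1, at 8.92 in null library 2 beside 8.97 to 8.99 in the other null libraries. Null library 1 was the lowest for Svs3a (10.04 beside 13.42 to 15.00), Svs3b (7.10 beside 10.90 to 12.15), Svs4 (12.38 beside 16.08 to 18.20) and Usp7 (11.61 beside 11.69 to 11.74), and the highest for Ms4a1 (4.90 beside 4.01 to 4.28). Null library 3 was the highest for Dsc3 (5.64 beside 5.25 to 5.38). Wild-type library 2 was the highest for Elk4 (8.01 beside 7.68 to 7.79) and the lowest for Tsc1 (9.51 beside 9.58 to 9.62) and Svs3b (2.72 beside 3.26 to 3.53). Wild-type library 4 was the highest for Cdk12 (9.60 beside 9.46 to 9.51).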

How the results depend on the processing

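No paired analysis was possible because the labels give no replicate numbers that the genotypes share. The alternatives without null libraries 5 and 6, those of the set means and those of the ratios were chosen after seeing the data. Chd1 kept its direction and its call under all 25 alternatives, with differences from 0.49 to 0.59.

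Over set means the calls of Akt1 (-0.40), Cdkn1b (0.31), Rb1 (0.21), Trp53 (0.17) and Spop (-0.13) were lost, and with a random block per set those of Rb1 (0.21), Trp53 (0.17) and Spop (-0.13). The count of called drivers and suppressors was 6, with 1 over set means and 3 with the block, and over all tested genes 8013, 2195 and 4984 were called. Trp53 also lost its call after quantile normalization (0.14) and upper quartile scaling (0.10), without null set 3, 4 and 6 (0.093), without wild-type set 4 to 6 (0.10) and without null libraries 5 and 6 (0.18). Spop lost it without the trend (-0.13), with the exact rank-sum test (-0.13) and without a filter (-0.13). Its call was also lost without either null set (-0.14 and -0.11), without wild-type libraries 4 to 6 (-0.029) and without null libraries 5 and 6 (-0.14). It was kept over 12 libraries after quantile normalization (-0.23) and upper quartile scaling (-0.20). The sign turned for Myc without null libraries 1, 2 and 5 (0.090), for Erg without wild-type libraries 1 to 3 (0.10) and for Brca2 without null libraries 3, 4 and 6 (-0.12) or without wild-type libraries 1 to 3 (-0.010). The cause was not tested.

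With each library left out in turn, differences were -0.062 to 0.034 for Myc, 0.12 to 0.19 for Trp53, -0.15 to -0.10 for Spop and 0.02 to 0.14 for Brca2, and 4 to 6 of the 9 genes were called. Over set means 2, Chd1 and Akt1, were called after quantile normalization, after upper quartile scaling and without null library 4. With each library left out, 1 to 2 were called over set means. Upper quartile scaling gave 3367 genes higher and 4869 lower, beside 4224 and 3789, and moved the median of all tested genes to -0.06.

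Of the 14 ratios reported, those of Akt1 to Akt2, Chd1 to Chd2, Trp53 to Mdm4, Spop to Cul3 and Myc to Mga kept direction and call under all 19 alternatives. None of these 19 used the set means or a block per set, and each takes the libraries of a set as independent. Ratios that did not pass turned sign for Spop to Spopl after quantile normalization (-0.11), Rb1 to Rbl2 without null libraries 1, 2 and 5 (-0.10), Cdkn1b to Skp2 without null libraries 3, 4 and 6 (0.059), and Erg to Fli1 without wild-type libraries 1 to 3 (-0.025) or null libraries 5 and 6 (-0.081). Depth is unknown, and values under 3.51 are at the level of undetected genes.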
